A study of Homo sapiens and Mus musculus with 19 samples.

Results

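The mouse cerebellum was compared between postnatal day 21 (P21) and 32 weeks at single CCGG sites, the 4-base sequence at which the assay reads DNA modification. Of 1519513 autosomal CCGG sites listed in the mouse tables, 649992 (42.8%) held at least 10 tags in all 5 libraries and were kept. The mouse tables list 1630178 sites with the sex chromosomes, and the mouse and human tables of the series list 3947923 in all. The groups were bulk cerebellum at 32 weeks (2 libraries) and bulk cerebellum at P21 (3 libraries). The labels give no strain, sex, genotype or treatment, and both groups differ in their labels only by age. Whether the replicates came from separate animals is not stated, so p-values measure the spread between these libraries, which may be technical.

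A tag is a sequenced molecule that carries one of 3 adapters, ligated in turn to sites that were unmethylated, hydroxymethylated or methylated. Every site therefore has 3 shares, which sum to 100%. Cytosine in CG pairs is methylated to 5-methylcytosine (5mC) by DNA methyltransferases, and TET enzymes oxidise 5mC to 5-hydroxymethylcytosine (5hmC). In neurons 5hmC is abundant, is known to accumulate after birth and lies largely in the bodies of active genes and in enhancers. Loss of an unmethylated state through methylation and gain of an unmethylated state through oxidation and repair are the textbook routes between the 3 states. The cerebellum is made up mostly of granule neurons, whose last divisions and early maturation fall in the weeks around P21. In bulk tissue, a change within cells and a change in the mix of cell types cannot be told apart.

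The 5 libraries held 17406896 to 25952928 tags, 85.7% to 87.1% of them on the kept sites, with a median of 21 to 31 tags per site. At 20 tags, a site share of 50% in 1 library has an exact Clopper-Pearson 95% interval of 27.2% to 72.8%, and at 100 tags one of 39.8% to 60.2%. A share of 0 at 20 tags allows up to 15%. These limits cover counting error only. One property of the libraries crosses the comparison: chromosome Y held 0.00836% to 0.0108% of tags in both 32-week libraries and in P21 replicate 2, and 0.217% in P21 replicates 1 and 3. Chromosome X held 3.79% to 3.85% of tags in the first 3 and 1.95% and 1.996% in the other 2. Results were therefore also fitted with the Y class as a term.

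Across the kept sites the tissue at 32 weeks carried more 5hmC and less unmethylated DNA than at P21. The 5hmC share was 9.01% and 10.5% in the 2 libraries at 32 weeks and 7.27%, 6.24% and 5.97% in the 3 at P21, in replicate order, so the ages did not overlap. The means were 9.74% ± 1.03 (SD, n = 2) and 6.49% ± 0.689 (SD, n = 3), a difference of 3.24 percentage points against a pooled SD of 0.818. The unmethylated share was 17.7% and 19.5% at 32 weeks and 21.5%, 19.9% and 20.5% at P21. Its ages did not overlap either, and the difference was -1.97 points with a pooled SD of 0.993. For each of these shares the two-sided exact permutation test gave p = 0.1, below which the 10 possible splits cannot go.

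For 5mC the libraries stood at 73.3% and 70.01% at 32 weeks and at 71.2%, 73.9% and 73.6% at P21. Here the ages overlapped, and the difference of -1.27 points was smaller than the pooled SD of 1.78 (exact permutation p = 0.5). The sign of this difference rests on 32-week replicate 2, since without it the difference was 0.355 points. The 5hmC share was higher at 32 weeks on all 19 autosomes, by 2.84 to 3.58 points. Within the 3 libraries low in Y tags, 5hmC was 9.01% and 10.5% at 32 weeks against 6.24% in the P21 library, and 17.7% and 19.5% of tags were unmethylated against 19.9%.

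**Figure D1:**
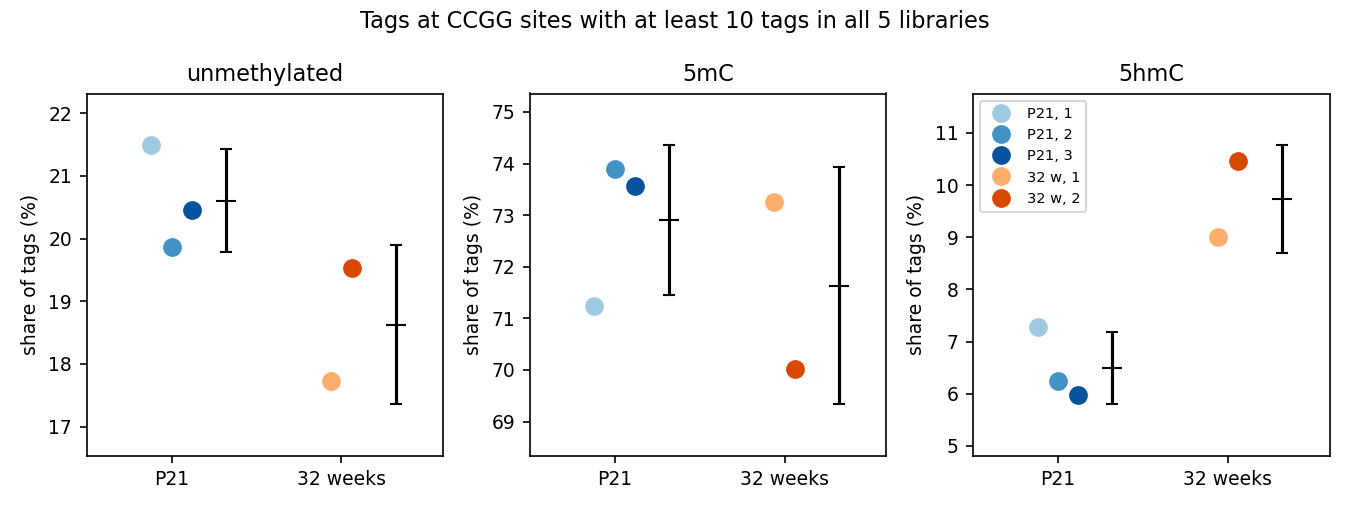
Share of tags (%) that were unmethylated, 5mC or 5hmC at the kept sites, 1 point per library, with the mean and SD of each age beside the points; the vertical axes do not start at 0. The P21 and 32-week points separate for 5hmC (5.97% to 7.27% against 9.01% and 10.5%) and narrowly for the unmethylated share, and they mix for 5mC.

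In percentage points, the difference was spread unevenly over sites. With sites classed by their unmethylated share in P21 replicate 3, the other 4 libraries can be compared without the library that made the classes. Sites at over 30% to 70% unmethylated in that library (73298 sites) were 37.1% and 41.0% unmethylated at 32 weeks and 47.2% and 44.97% in the other P21 libraries. Sites at over 70% to 90% (40438 sites) were 68.5% and 74.6% unmethylated at 32 weeks and 80.1% and 78.3% at P21. In these 2 classes the difference of the unmethylated share was -7.08 and -7.63 points, against -1.97 points over all sites. In the second of them, 5mC was higher by 4.96 points and 5hmC by 2.67 points.

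At the ends of the scale the unmethylated share differed little in percentage points. Odds were not compared between these classes. Sites at over 90% unmethylated (33546 sites) differed by -1.69 points. Their libraries overlapped, at 88.9% and 91.6% for 32 weeks and 92.5% and 91.3% for P21. The 148928 sites at 0% and the 222599 at over 0% to 10% differed by -0.219 and -0.513 points. In those sites the exchange was between the modified forms: at sites with no unmethylated tag in P21 replicate 3, 5hmC differed by 2.72 points and 5mC by -2.505.

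The gain of 5hmC in points was larger at sites with more 5hmC at P21, up to 40%. Sites with no 5hmC tag in P21 replicate 3 (216177 sites) were higher by 1.37 points, from 2.86% in the other P21 libraries. Sites at over 10% to 20% were higher by 5.56 points from 12.6%, and sites at over 20% to 40% by 6.92 points from 21.8%. In the top class, over 40% (2140 sites), the gain was 6.44 points from 31.6%. Relative to the starting level, the gain was 0.479 of it at sites with no 5hmC tag, 0.318 of it at over 20% to 40% and 0.203 of it at over 40%. Crowding of CCGG sites, which marks CpG islands, went with small changes in percentage points. At sites with 10 or more other CCGG sites within 500 bp (4477 sites), 5hmC was 0.658% and 0.871% at 32 weeks and 0.422% to 0.576% at P21, a gain of 0.263 points against 3.29 at isolated sites. Relative to the P21 level the gain was much the same, at 0.525 of it in the crowded sites and 0.498 of it in the isolated ones. The unmethylated share of these crowded sites was 79.9% and 82.3% at 32 weeks and 80.7% to 82.4% at P21, and the ages overlapped.

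**Figure D2:**
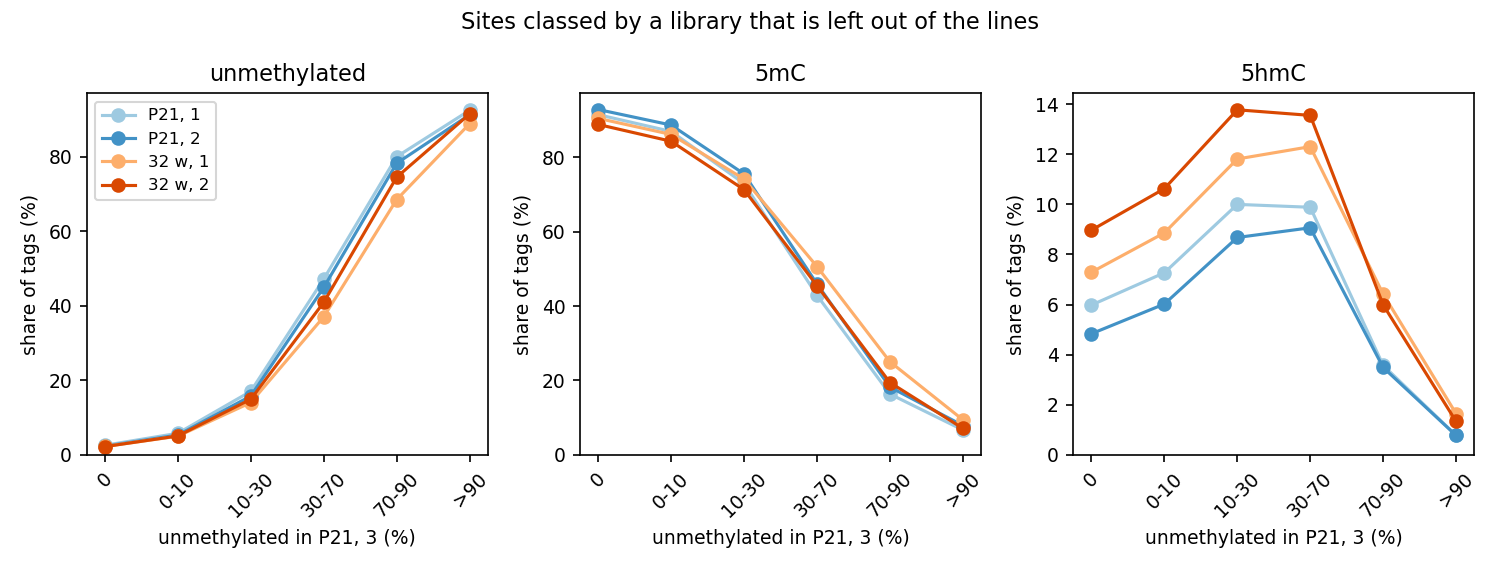
Share of tags (%) of each kind in 4 libraries (vertical axes) for sites classed by their unmethylated share (%) in P21 replicate 3 (horizontal axes), which is left out of the lines. The 32-week lines lie below the P21 lines for the unmethylated share mainly at 30% to 90%, and above them for 5hmC in every class.

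To follow sites between states, each was called unmethylated (at least 70% of tags), methylated (at least 70% 5mC), 5hmC-rich (at least 20% 5hmC) or mixed, from the tags pooled by age. A site that met both the 5mC and the 5hmC limit counted as 5hmC-rich. One that met both the unmethylated and the 5hmC limit counted as unmethylated. A move from methylated to 5hmC-rich can therefore leave 5mC at 70% or more. The pools differ in depth, with 3 libraries at P21 (medians of 26, 24 and 31 tags per site) and 2 at 32 weeks (21 and 21). Shares from fewer tags scatter more, which by itself can move more sites past a limit. The part of depth in the counts below was not tested. Of the 649992 sites, 17.3% (112297) were in another state at 32 weeks than at P21. Part of this is sampling and library, since a mean of 22.0% of sites differed in state between single libraries of different age, 15.1% between P21 libraries, and 21.5% between both 32-week libraries. The directions were unequal. The number of 5hmC-rich sites was 36300 at P21 and 90902 at 32 weeks, and the number of unmethylated sites was 72279 and 59638. Of methylated sites, 37878 (8.48%) became 5hmC-rich, and of 5hmC-rich sites 2542 (7.003%) became methylated. These numbers depend on the limits. With 80% for the unmethylated and methylated states and 30% for 5hmC, no site can meet both limits. At these limits, 5hmC-rich sites numbered 8019 and 35486. Then 5558 methylated sites (1.44%) became 5hmC-rich and 50 (0.624%) of the 5hmC-rich sites became methylated.

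Of the 72279 sites unmethylated at P21, 77.8% kept that state, 14531 became mixed, 1494 became 5hmC-rich and 52 became methylated. In the other direction 3105 mixed, 328 5hmC-rich and 3 methylated sites became unmethylated. A full exchange between unmethylated and methylated was thus rare over this interval, and most moves ended in the mixed or 5hmC-rich state. Among 5hmC-rich sites, 82.6% kept their state.

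The same asymmetry was visible between single libraries. From a P21 library to a 32-week library, 181 to 293 sites went from unmethylated to methylated and 15 to 81 the other way, over 6 pairs of libraries. Between P21 libraries these moves numbered 6 to 27. Between the 32-week libraries, 62 sites were unmethylated in replicate 2 and methylated in replicate 1, and 15 the reverse. Moves from methylated to 5hmC-rich numbered 34968 to 56022 against 4958 to 13894 the other way. For that exchange the 32-week libraries also differed from each other, with 20358 and 39024 sites. The squared difference between libraries, over that from sampling alone, was 1.02 to 1.08 between P21 libraries for the 3 shares and 1.06 to 1.10 between the 32-week libraries. Between ages it was 1.24 to 1.40 for the unmethylated share, 1.25 to 1.47 for 5mC and 1.17 to 1.67 for 5hmC.

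Single sites were then tested. For each kind of tag, edgeR's quasi-likelihood test compared the odds of that kind against the other 2 kinds, with Benjamini-Hochberg adjustment over all sites tested and a threshold of 0.05. The unmethylated share fell at 7542 of 301827 sites (2.5%) and rose at 1064 (0.353%). The 5hmC share rose at 4090 of 247764 sites (1.65%) and fell at 59 (0.0238%). The 5mC share rose at 1361 of 468197 sites (0.291%) and fell at 1898 (0.405%). The larger direction of the 5mC calls depended on the libraries and the setting. It turned to rises without 32-week replicate 2 (94 rises and 14 falls), without P21 replicate 2 (387 and 270), without P21 replicate 3 (53 and 28), and with 5mC set against unmethylated tags alone (4180 and 904). In all, 12565 sites had at least 1 call, which is 1.93% of the kept sites.

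The number of calls changed with the setting for all 3 kinds. With each library's own odds of 5hmC taken as the reference, so that only a change beyond the genome-wide one counts, 71 sites (0.0287%) rose and 67 (0.027%) fell. The same reference gave 4053 falls (1.34%) and 1508 rises (0.5%) of the unmethylated share, and 2262 rises (0.483%) and 1932 falls (0.413%) of 5mC, which turns the larger direction of the 5mC calls. It shifted the median log2 odds over all tested sites from 0.69 to 0.02 for 5hmC, from -0.16 to -0.06 for 5mC and from -0.31 to -0.08 for the unmethylated share. With the Y class as a term, edgeR called 0 sites for 5hmC, 2 for 5mC and 313 unmethylated sites. At an unadjusted p under 0.05 that fit still held 30913 sites for 5hmC. Limma on logit shares called 0 sites for any kind. At an unadjusted p under 0.05 it held 38905 sites for 5hmC, 51954 for 5mC and 41268 for unmethylated tags. Without P21 replicate 3, 0 sites were called for 5hmC, with 32060 at an unadjusted p under 0.05, and without 32-week replicate 2 the count was 2.

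Sites where the unmethylated share fell were the largest group, and both modified forms were higher there in the mean. At these 7542 sites the unmethylated share was 25.3% and 26.8% at 32 weeks and 59.4%, 57.2% and 60.0% at P21. The mean fall was -34.4 points, balanced by 5mC for 69.5% of it and by 5hmC for 30.5%. At 5531 of the sites only the unmethylated share was called, at 1295 a rise of 5mC was called as well, and at 688 a rise of 5hmC. In the 1295, 5mC gained 37.6 points and 5hmC 3.34 points, while in the 688, 5hmC gained 27.1 points and 5mC 10.5. Of the 1361 sites where 5mC rose, 1323 (97.2%) also lost unmethylated tags. At P21 5hmC was only 4.83% to 5.64% of tags at these sites. Since the shares sum to a whole, this overlap is largely built in.

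At 2256 of the 4090 sites where 5hmC rose, no other kind was called, with mean differences of 26.6 points of 5hmC, -19.6 of 5mC and -7.09 of unmethylated tags. At 1118 of the 4090 (27.3%) 5mC fell too, and at 716 (17.5%) the unmethylated share fell. In the 1117 sites with only the first pair of calls, the P21 tags were 83.8% 5mC, 12.2% 5hmC and 3.99% unmethylated. At 32 weeks they were 51.8% 5mC, 42.3% 5hmC and 5.97% unmethylated. These sites were chosen for a change of 5mC and 5hmC without one of the unmethylated share, so the values describe the group and are no test. The 1118 sites are also 58.9% of the 1898 at which 5mC fell.

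Sites where the unmethylated share rose already had a larger portion of 5hmC among their modified tags at P21 than other sites. At these 1064 sites the unmethylated share was 54.4% and 64.4% at 32 weeks and 26.7%, 24.1% and 25.0% at P21, a mean rise of 35.2 points. Of their modified tags at P21, 30.6%, 27.1% and 28.2% were 5hmC. Over all kept sites this was 9.27%, 7.78% and 7.51%. No class matched these sites in unmethylated share. The class at over 10% to 30% in P21 replicate 3 was less unmethylated at P21 (17.1%, 15.8% and 17.5%). Its 5hmC portion was 12.1%, 10.3% and 10.3%. The class at over 30% to 70% was more unmethylated (47.2%, 44.97% and 47.8%), with a 5hmC portion of 18.7%, 16.5% and 16.8%. At the 7542 sites that lost unmethylated tags the 5hmC portion was 19.1%, 17.2% and 17.2%, near that of the class at over 30% to 70%. The 5hmC portion was not the quantity used to call these sites, and it is given as a description, with no test. With the 1508 rises called relative to each library's odds, it was 30.1%, 26.7% and 27.6%.

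Only 59 sites lost 5hmC. With 5hmC set against 5mC alone, 2 sites did, so most of these calls rest on unmethylated tags being part of the reference. A higher unmethylated share at them is thus partly built into the call. At 40 of the 59 (67.8%) the unmethylated share rose, and the mean unmethylated share was higher at 58 of the 59. Their 5hmC share was 4.47% and 3.29% at 32 weeks and 27.3%, 25.6% and 27.1% at P21, while the mean difference was -9.60 points for 5mC and 33.1 points for the unmethylated share.

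**Figure D3:**
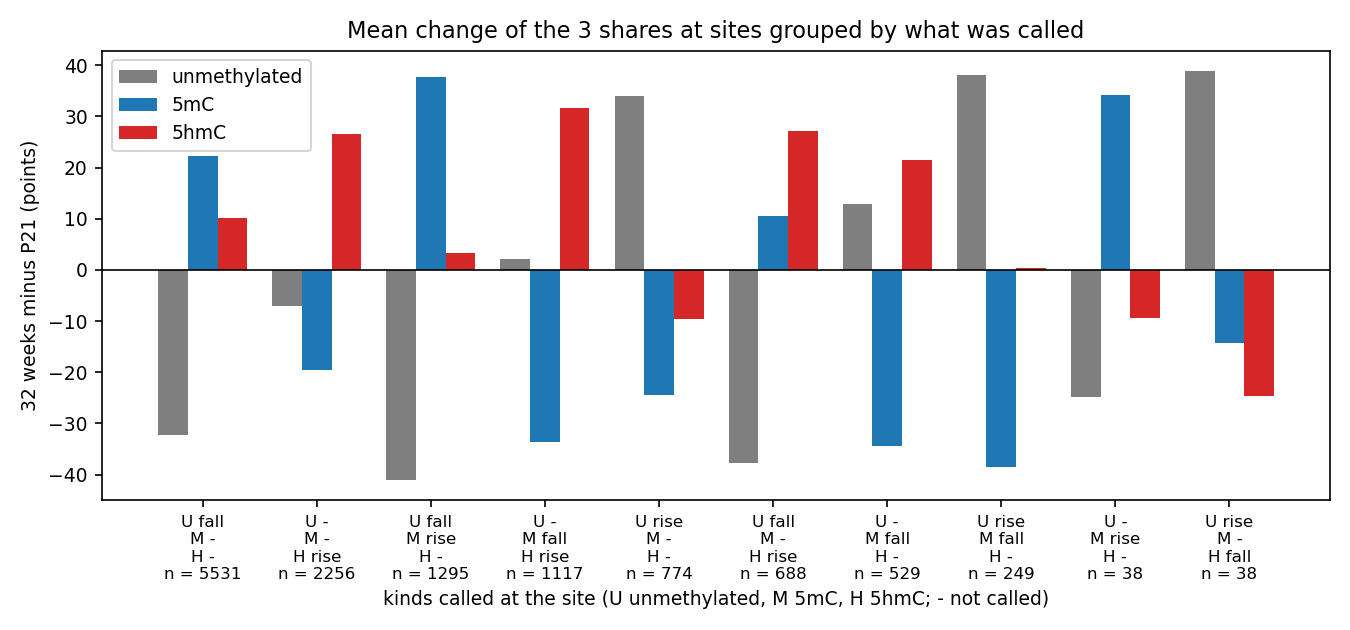
Mean change (32 weeks minus P21, in percentage points) of the unmethylated, 5mC and 5hmC shares at sites grouped by which kinds were called and in which direction, for patterns of at least 30 sites; n is the number of sites. The bars of the called kinds are large because the calls chose the sites. The shares of a site sum to a whole, so the other bars show the net balance and not the origin of tags. Falls of the unmethylated share go with gains of 5mC and 5hmC, and most rises of 5hmC with losses of 5mC.

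Positions are given for single sites as 1-based coordinates taken as mouse mm10, and no gene is named because no mouse annotation was used here. For each kind and direction, the 5 called sites with the largest change are the examples drawn on below, so their sizes lie at the upper end. They were chosen among sites with at least 20 tags in every library and no overlap between the ages. Every one of these sites lost its call with limma on logit shares, so that setting is not repeated below.

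The largest fall of the unmethylated share was on chromosome 13 at 109230698. The unmethylated share there was 20.6% and 3.70% at 32 weeks and 90.2%, 83.3% and 74.2% at P21, from 27 to 42 tags per library. Both 32-week values lay far below all 3 at P21 (log2 odds -4.99, SE 0.60, edgeR adjusted p 4.51e-08). Both modified forms were higher at 32 weeks. The 5mC share was 50% and 63.0% at 32 weeks and 7.32% to 22.6% at P21, and 5hmC was 29.4% and 33.3% against 2.44% to 4.76%.

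On chromosome 14 at 32004090 the unmethylated share was 29.7% and 16.7% at 32 weeks and 82.1%, 86.1% and 87.0% at P21 (log2 odds -4.18, SE 0.51, edgeR adjusted p 4.51e-08). This site filled mainly with 5mC, at 48.6% and 69.4% against 11.1% to 13.9%. On chromosome 3 at 103516802 the unmethylated share was 9.09% and 20.6% at 32 weeks and 80.9%, 72.7% and 74.1% at P21 (log2 odds -4.22, SE 0.52, edgeR adjusted p 4.51e-08). There 5hmC took a large part, at 34.1% and 38.2% against 6.38% to 7.41%. These 3 calls held with the Y class as a term and with each library left out.

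Other closing sites gained 5mC with hardly any 5hmC. On chromosome 16 at 24218214 the 5mC share was 81.1% and 70.7% at 32 weeks and 25.0%, 10.5% and 26.8% at P21 (log2 odds 3.50, SE 0.50, edgeR adjusted p 5.59e-05). Its 5hmC share stayed between 0% and 4.17% in all 5 libraries, where 0 of 37 tags allows up to 8.11%. On chromosome 13 at 24941048 the 5mC share was 82.6% and 95.5% at 32 weeks and 21.7%, 40.9% and 30% at P21 (log2 odds 4.103, SE 0.69, edgeR adjusted p 0.000728). This call was lost without 32-week replicate 2 and with the Y class as a term.

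The largest rise of the unmethylated share was on chromosome 11 at 3503392. The unmethylated share was 81.8% and 85.7% at 32 weeks and 16.7%, 4.17% and 28.9% at P21, from 21 to 38 tags per library (log2 odds 4.41, SE 0.63, edgeR adjusted p 1.63e-06). At P21 this site carried 62.5%, 25.0% and 23.7% 5hmC, and at 32 weeks 9.09% and 9.52%. Its 5hmC missed the threshold (edgeR adjusted p 0.0716).

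A second opening site, on chromosome 13 at 19438604, gave up 5mC instead. The unmethylated share was 62.5% and 75.9% at 32 weeks and 12.5%, 3.70% and 4.26% at P21 (log2 odds 4.89, SE 0.62, edgeR adjusted p 1.07e-07). The 5mC share was 15.6% and 17.2% against 68.8%, 92.6% and 76.6% (log2 odds -4.16, SE 0.58, edgeR adjusted p 3.15e-05). It lies among 8 other CCGG sites within 500 bp, whereas the other 4 largest rises had 0 to 4. On chromosome 5 at 103109176 the unmethylated share was 61.1% and 69.4% at 32 weeks and 8.47%, 6.67% and 14.5% at P21, and all 3 kinds passed the test. Its 5hmC was 11.1% and 5.56% at 32 weeks and 39.0%, 22.2% and 29.0% at P21.

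The largest rise of 5hmC was on chromosome 16 at 94639116. The 5hmC share was 70% and 77.4% at 32 weeks and 26.5%, 14.3% and 27.4% at P21, from 30 to 62 tags per library (log2 odds 3.14, SE 0.52, edgeR adjusted p 0.000973). The unmethylated share was 2.04% to 8.57% in all 5 libraries, and 5mC was 26.7% and 19.4% against 64.5% to 77.1%. The site was thus modified on nearly all molecules at both ages, and the form changed. On chromosome 16 at 9979761 the 5hmC share was 53.3% and 56.8% at 32 weeks and 5.56%, 15.4% and 12.5% at P21 (log2 odds 3.19, SE 0.55, edgeR adjusted p 0.00114). Both calls were lost with the Y class as a term, without 32-week replicate 2 and without P21 replicate 3.

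The largest fall of 5hmC was on chromosome 6 at 54253564, where 5hmC was 37.1%, 42.4% and 54.5% at P21 and 6.25% and 3.85% at 32 weeks (log2 odds -3.78, SE 0.72, edgeR adjusted p 0.00307). The unmethylated share there rose, from 25.7%, 24.2% and 21.2% at P21 to 56.2% and 84.6%. The fall of 5hmC was lost with the Y class as a term, with 5hmC set against 5mC alone, and without 32-week replicate 2 or P21 replicate 3. In all 5 of the largest falls of 5hmC the unmethylated share rose by the same test.

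Neighbouring sites moved together over short distances. The difference between ages correlated between a site and the next kept site with Pearson's r = 0.42 for the unmethylated share at 2 to 50 bp (6010 pairs). It was 0.16 at 500 to 1000 bp and 0.05 at 10000 to 20000 bp (42707 pairs). For 5mC r went from 0.38 to 0.10 over the same span. For 5hmC r was 0.33 at 2 to 50 bp, lowest at 1000 to 2000 bp with 0.13, and 0.15 at 10000 to 20000 bp. These values describe pairs of sites that share the same 5 libraries, and close sites can share molecules.

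Calls clustered as well, apart from the few falls of 5hmC. Each called site was paired with every tested adjacent kept site within 500 bp, so a site can enter more than once. Where both sites of a pair were called, the pair counts from each end. For called falls of the unmethylated share the neighbour was called the other way in 0 of 2532 pairs. It was called the same way in 524 (20.7%), against 2.5% of all tested sites. Same-way calls were 48 of 335 pairs for rises of the unmethylated share (14.3%, against 0.353%). For rises of 5hmC they were 82 of 845 (9.70%, against 1.65%). For 5mC they were 42 of 567 for rises (7.41%, against 0.291%) and 30 of 533 for falls (5.63%, against 0.405%). For falls of 5hmC they were 0 of 15, with 1 called the other way, too few pairs to judge. The median difference at the neighbours of sites that lost unmethylated tags was -15.7 points, against -2.86 over all tested sites.

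**Figure D4:**
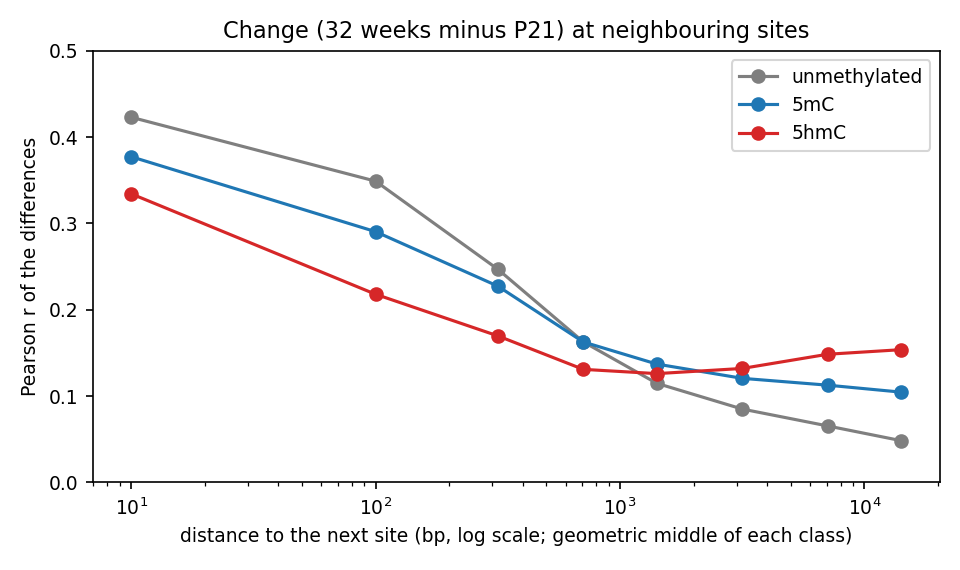
Pearson's r of the difference between ages (vertical axis) for pairs of neighbouring kept sites, by the distance between them in bp (horizontal axis, log scale). The unmethylated share starts highest, at 0.42, and falls to 0.05, whereas 5hmC levels off and is 0.15 at the longest distances.

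Since no gene annotation of the mouse was used here, runs of kept sites stood in for genes: at least 3 sites, each at most 1000 bp from the next. There were 43634 runs with 161659 sites and a median length of 1179 bp. The unmethylated share fell in 2406 of 41168 runs (5.84%) and rose in 238 (0.578%). The 5hmC share rose in 3781 of 38956 runs (9.71%) and fell in 22 (0.0565%). The 5mC share rose in 485 of 43428 runs (1.12%) and fell in 1013 (2.33%), though without 32-week replicate 2 it rose in 273 and fell in 155. Relative to each library's odds, 5hmC rose in 94 runs (0.241%) and fell in 47 (0.121%), and the unmethylated share fell in 1451 (3.52%) and rose in 443 (1.08%), and 5mC rose in 923 (2.13%) and fell in 1232 (2.84%). With the Y class as a term, calls numbered 232 for 5hmC, 220 for 5mC and 519 for unmethylated tags. Limma on logit shares called 13 runs for the unmethylated share and 0 for 5hmC and 5mC, with 8326 and 5980 at an unadjusted p under 0.05. DESeq2 called 3 runs for 5hmC, 179 for 5mC and 97 for unmethylated tags.

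Every site differed in the called direction in 1543 of the 2406 runs that lost unmethylated tags (64.1%), and in 2419 of the 3781 that gained 5hmC (64.0%). Over all runs, called or not, every site differed in these directions in 18.7% and 24.8%. The called runs were chosen on the tags of these same sites, so these counts are a description. In runs that lost 5mC the median changes were -17.6 points for 5mC, 12.5 for 5hmC and 4.04 for the unmethylated share. In runs that gained 5mC they were 18.8 points for 5mC, -22.8 for the unmethylated share and 3.67 for 5hmC.

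A run of 8 sites on chromosome 11, from 94133613 to 94137353, showed how a fall was placed. Over the run the unmethylated share was 29.4% and 35.8% at 32 weeks and 64.2%, 62.4% and 67.2% at P21 (log2 odds -1.93, SE 0.23, edgeR adjusted p 2.44e-10). The first 2 sites, at -1870 and -1335 bp from the centre, differed by -10.98 and 2.90 points and stayed at 81.8% or more in all libraries. The last 3 sites, at 1255 to 1870 bp, differed by -46.6, -46.2 and -41.99 points. Between them, the sites at -553, -271 and 314 bp differed by -11.8, -26.4 and -32.7 points. The differences were thus largest in the right-hand part of the run, and the site at -271 bp was also low at 32 weeks, with 3.33% and 0% against 21.2% to 32.6%. The 5mC share of the run rose, with 52.1% and 46.4% at 32 weeks and 24.5% to 27.4% at P21, and so did 5hmC, with 18.4% and 17.9% against 8.30% to 10.2%.

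Every example run that follows, like the one above, lost its call with limma on logit shares. The largest fall among runs was on chromosome 15 from 78409755 to 78410502 (4 sites). Its unmethylated share was 39.4% and 28.2% at 32 weeks and 71.1%, 69.8% and 73.3% at P21 (log2 odds -2.26, SE 0.27, edgeR adjusted p 9.28e-11). On chromosome 4 from 122998922 to 123000122 (4 sites) the share was 48.1% and 50.5% at 32 weeks and 87.6%, 79.8% and 82.8% at P21. That run gained 5mC, with 49.1% and 39.6% against 9.92% to 20.2%, while its 5hmC did not pass the test (edgeR adjusted p 0.0929). Both falls were kept with the Y class as a term and with each library left out.

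The largest rise among runs, on chromosome 19 from 44404786 to 44407266 (4 sites), was also the largest fall of 5hmC. The unmethylated share was 71.4% and 73.3% at 32 weeks and 41.2%, 40.8% and 47.4% at P21 (log2 odds 1.76, SE 0.28, edgeR adjusted p 1.16e-06). Its 5hmC was 9.24% and 10.3% at 32 weeks and 23.5%, 16.5% and 23.7% at P21 (log2 odds -1.32, SE 0.39, edgeR adjusted p 0.0188). The site at the right end was above 90% unmethylated in every library, and the other 3 sites differed by 32.4, 51.5 and 24.1 points in the mean. The call for the unmethylated share was lost with DESeq2. That for 5hmC was lost with DESeq2, with the Y class as a term, and without either 32-week library or P21 replicate 3.

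A longer run on chromosome 5 from 113499617 to 113501271 (7 sites) gained unmethylated tags without a call for 5hmC. The unmethylated share was 30.3% and 47.2% at 32 weeks and 14.6%, 16.7% and 11.6% at P21 (log2 odds 1.90, SE 0.25, edgeR adjusted p 5.26e-09). Its 5mC was 51.8% and 31.7% against 63.2% to 67.0%, and its 5hmC was 17.9% and 21.1% against 16.3% to 22.8%. Over the run as a whole, the net loss of modified tags was thus mostly 5mC. The sites differed in 5hmC, while mean 5mC was lower at all of them. At 113499617, 113499990, 113500751 and 113500775, 5hmC differed by -10.3, -12.8, -15.99 and -6.86 points. At 113500544, 113501056 and 113501271 it differed by 31.2, 8.11 and 0.574 points. The unmethylated share rose most at 113500751, where both 5mC and 5hmC were lower.

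The largest rise of 5hmC among runs was on chromosome 15 from 77812055 to 77813417 (5 sites). The 5hmC share was 31.0% and 44.9% at 32 weeks and 15.2%, 13.5% and 16.6% at P21 (log2 odds 1.75, SE 0.31, edgeR adjusted p 7.89e-05). The 5mC share fell, with 44.4% and 31.4% against 61.6%, 60.9% and 66.8%, and the unmethylated share overlapped between the ages at 16.6% to 25.6%. All 5 sites gained 5hmC in the mean, by 12.4 to 34.9 points. On chromosome 10 from 67108075 to 67109755 (5 sites) the 5hmC share was 43.0% and 42.3% at 32 weeks and 20.7%, 25.0% and 15.98% at P21 (log2 odds 1.54, SE 0.30, edgeR adjusted p 0.000379). The run on chromosome 15 was still called relative to each library's odds (edgeR adjusted p 0.0485), and that on chromosome 10 was not (0.136). Without 32-week replicate 2 the first call was lost, with the Y class as a term the second, and with DESeq2 both. The fall of 5mC on chromosome 15 was lost without 32-week replicate 2 (edgeR adjusted p 0.0549) and with the Y class as a term (0.0666).

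A gain of 5hmC could also go with a fall of the unmethylated share. On chromosome 2 from 33214503 to 33216846 (5 sites) the 5hmC share was 29.9% and 30.6% at 32 weeks and 12.1%, 11.03% and 7.74% at P21 (log2 odds 1.93, SE 0.33, edgeR adjusted p 6.12e-05). The unmethylated share there fell, with 22.2% and 31.4% against 47.5%, 37.2% and 46.4%. Its 5mC overlapped between the ages, at 47.9% and 38.0% against 40.4% to 51.7%. The sites of the run were unlike. At 33215456, 5hmC differed by 45.7 points and the unmethylated share by -47.8. At 33214747 they differed by 26.4 and -2.78 points, and 5mC by -23.6. The call of 5hmC over the run held with the Y class as a term, relative to each library's odds and with each library left out, and was lost with DESeq2.

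**Figure D5:**
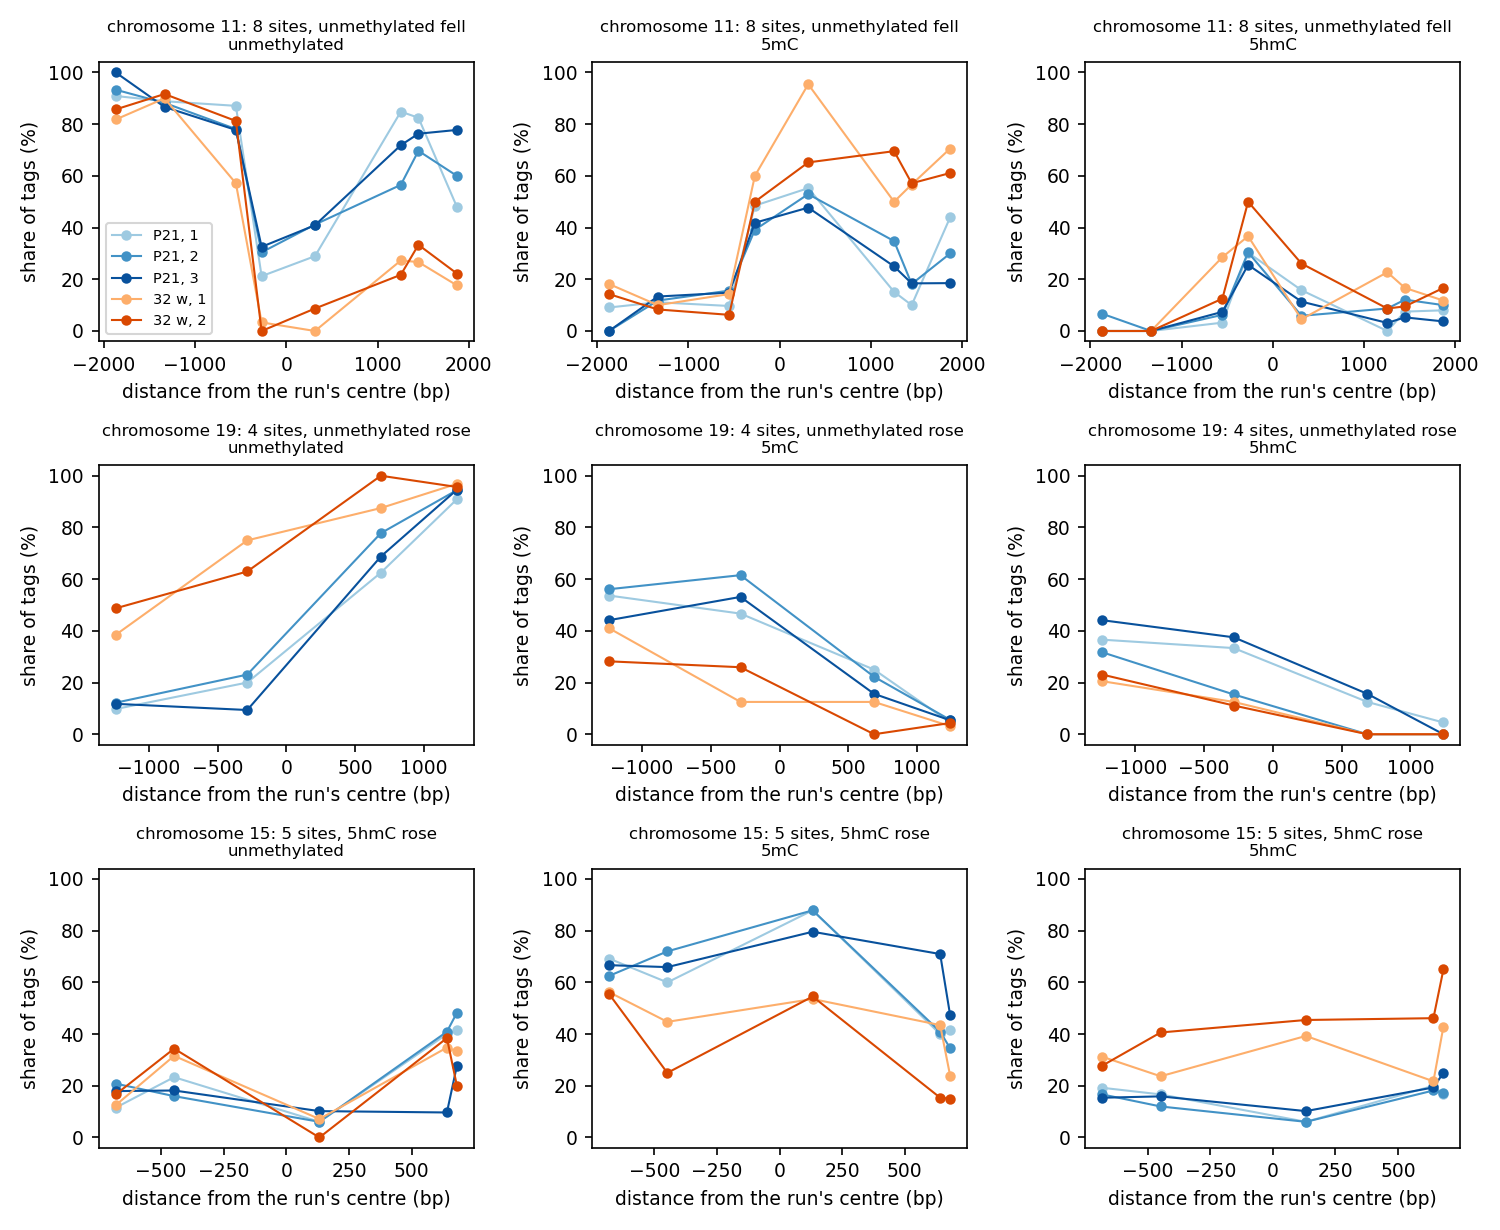
Share of tags (%) that were unmethylated, 5mC and 5hmC (vertical axes) at each site of 3 runs, by distance from the run's centre in bp (horizontal axes), 1 line per library. In the run on chromosome 11 the 32-week lines fall below the P21 lines from the centre to the right end, on chromosome 19 they lie above them at every site, though only narrowly at the right end, and on chromosome 15 the 5hmC lines lie above them at every site.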

How the data were processed

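Bulk mouse cerebellum was profiled at CCGG sites. Each deposited table gives, per site, 3 values in the unit fraction (unmethylated, 5mC, 5hmC) and the deposited count of tags, with no header. The 3 fraction columns were assigned by position, in the same way at every site. Over the kept sites, the column taken as 5mC held the larger modified share in every library. Every 5hmC result rests on this assignment. Fraction times count was whole within 0.00358 at every site, so tags of each kind were recovered. The processing notes of the submitters name Bowtie2 2.3.4.1, cutadapt 1.5 and UMI-tools 0.5.4, with roles not given in the sources used here. They list hg38 for all samples, and the mouse positions were taken as mm10. No mouse genome, annotation or sequence was used here, so gene bodies were replaced by runs of sites, and gene starts and gene lists were not run.

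Sites needed 10 tags in all 5 libraries. For a test, a site or run needed 10 tags of the kind and 10 of the others, summed over libraries. Odds were fitted with edgeR 4.0.16 (R 4.3.3) with 1 term per library and a common dispersion. This main fit was first run on simulated tags, which held no shift of a whole library and no effect of the Y class. The alternatives below were not run on simulated tags. Log2 odds are 32 weeks over P21. Shares of the tags pooled over sites, 1 value per library, were compared by exact permutation tests (SciPy 1.17.1). Alternatives were limma 3.58.1 (logit shares, pseudocount 0.5), DESeq2 1.42.0 on runs, a replicate block, a term for the class of Y tags, odds relative to each library, 1 other kind as the reference, other filters, and each library left out. Figures used matplotlib 3.10.9. Examples follow a rule: among called sites (20 tags per library) or runs (100 tags) whose ages do not overlap, the 5 sites per kind and direction, the 10 runs for 5hmC and the 6 for the other kinds with the largest change. The text gives part of them. The members and lists were chosen with earlier results of these data known.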

Additional observations from a re-analysis of the deposited data

Results flagged for a closer look

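Chromosomes X and Y, which enter no comparison above, carried tags in every library. Chromosome Y held 0.0108% and 0.00836% of tags in 32-week replicates 1 and 2, and 0.217%, 0.0101% and 0.217% in P21 replicates 1, 2 and 3. A count of 3 tags would be at most 1.72e-05% of a library. The labels do not give the animals' sex, and the Y class and age are partly confounded, since both 32-week libraries are in the low class.

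At 18230 sites of chromosome X with at least 10 tags in all libraries, 5hmC was 3.74% and 5.09% at 32 weeks and 5.19%, 2.76% and 3.92% at P21. The ages overlapped there over all 5 libraries. Within the 3 libraries low in Y tags they did not, at 3.74% and 5.09% for 32 weeks and 2.76% for P21, as on the autosomes. As a ratio to the autosomal 5hmC share, these were 0.415 and 0.487 at 32 weeks and 0.714, 0.442 and 0.657 at P21. The 3 libraries low in Y tags had the 3 lowest ratios. The part of the Y class in these values was not tested.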

How the results depend on the processing

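The differences of 5hmC and of the unmethylated share over all sites kept their sign under every alternative run, at 2.51 to 3.97 and -2.87 to -1.08 points. The 5mC difference ranged from -2.89 to 0.355 points and was positive without 32-week replicate 2. Sites changing state were 18.7% with limits of 80% and 30%, 15.98% with at least 20 tags and 22.0% between single libraries of different age. The limits of 80% and 30% also gave 8019 and 35486 5hmC-rich sites in place of 36300 and 90902.

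The 5mC calls at sites turned to more rises than falls without 32-week replicate 2, P21 replicate 2 or P21 replicate 3, with the block (183 rises and 143 falls), relative to each library's odds and against unmethylated tags alone. At runs they did so without 32-week replicate 2. Counts of calls depended strongly on the setting, against 4149 sites for 5hmC, 3259 for 5mC and 8606 for unmethylated tags, and 3803, 1498 and 2644 runs. In that order, sites then runs, the counts were 242, 326 and 2935, and 757, 141 and 1057, with a replicate block. They were 0, 2 and 313, and 232, 220 and 519, with the Y class as a term. Limma on logit shares gave 0 for all 3 kinds of site (38905, 51954 and 41268 at an unadjusted p under 0.05), and 0, 0 and 13 runs (8326 and 5980 for the first 2). Relative to each library's odds, 138 sites and 141 runs were called for 5hmC and 5561 sites for the unmethylated share. With 1 other kind as the reference the sites were 2002, 5084 and 5084, the last 2 from a single fit. With at least 3 tags of the kind, 1145 sites were called for 5hmC and 5078 for the unmethylated share, and with 20 tags 5086 for the latter. DESeq2 called 3, 179 and 97 runs. Runs of at least 10 sites, of which there are 201, gave 94, 17 and 37.

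Without one library at a time, sites called were 0 to 1674 for 5hmC, 81 to 1108 for 5mC and 2426 to 4760 for unmethylated tags, each under the full count by more than 1.5 times for every library. For 5hmC the sites were 1239 without 32-week replicate 1, 2 without replicate 2, and 1674, 252 and 0 without P21 replicates 1, 2 and 3 (32060 at an unadjusted p under 0.05 for the last). Runs were 327 to 3643, 417 to 1303 and 1367 to 2220. For 5hmC runs the low counts were 327 without 32-week replicate 2, 1816 without P21 replicate 2 and 1339 without P21 replicate 3. With 1 library left at 32 weeks, it is assumed to vary like the others. The cause of these differences was not tested. Deviations of libraries with the same replicate number correlated at -0.0243 to -0.000261 over sites, so the numbers were not taken as pairs, and a call lost under the block is not read as a weaker effect. Of 360 results for the 30 example sites and 462 for the 42 example runs, 0 changed sign and 101 and 134 lost the call. Gene bodies and gene starts were not run. At a median of 21 to 31 tags per site, smaller changes at single sites were not detectable.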
